A study of Mus musculus with 8 samples.

Results

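The 41 genes described here are interferon-stimulated genes, which cells switch on when an interferon binds its receptor. They were chosen by symbol, and all 41 were found among the 49585 genes of the count file, each with at least 10 counts summed over the 8 libraries. In all, 18666 genes reached that sum. All 41 also passed the expression filter that left 15255 genes to be tested. Type I interferons bind the receptor IFNAR1/IFNAR2 at the cell surface, and the kinases JAK1 and TYK2 then phosphorylate STAT proteins, STAT2 among them. A complex that holds STAT2 and IRF9 then enters the nucleus and binds a DNA element, the interferon-stimulated response element, in promoters of many such genes. Many cells, fibroblasts included, keep a low level of these proteins without infection, and their products sense viral nucleic acids, block viral replication and prepare peptides for presentation to T cells.

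The material was 3T3-L1, a line of mouse preadipocytes that forms fat cells on induction, harvested for RNA sequencing on day 7 of culture. The 8 libraries form 4 groups of 2: induced spheroids (3D), uninduced spheroids (3D), induced flat cultures (2D) and uninduced flat cultures (2D). Spheroids were seeded as hanging drops of 20000 cells in 28 µL, and all cultures shared a medium with calf serum and methylcellulose. Induced cultures received 10 µM troglitazone, a PPARγ agonist, and 1 µg/ml insulin throughout, with 250 nM dexamethasone, a glucocorticoid, and 10 nM triiodothyronine, a thyroid hormone, over the first 2 days. Uninduced cultures received none of the 4 agents. The libraries held 11839374 to 21169390 counts. Per the labels, the samples of a group were prepared independently, and whether they came from separate cultures is not stated, so the spread behind each p-value may be technical.

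The cells were checked against marker genes. The summed level of 8 adipocyte markers, in CPM (counts scaled to library size), was 1624 and 2753 in induced spheroids, 122 and 122 in uninduced spheroids, 6553 and 6075 in induced flat cultures, and 86.2 and 85.4 in uninduced flat cultures. Both induced groups were above the uninduced groups, and the induced flat cultures were highest. Of the 14 leukocyte markers, the defining genes Ptprc, Adgre1, Tyrobp, Cd3e, Siglech and Ncr1 were at 0 in every library. Of the same 14, 5 passed the expression filter, namely Cd68, Csf1r, Cd14, Lyz2 and Aif1. In uninduced spheroids over flat cultures Cd14 was higher at 2.16 ± 0.31 (adjusted p = 0.00351) and Lyz2 lower at -2.75 ± 0.55 (adjusted p = 0.0126), both log2 fold changes with their SE, tested with edgeR. In induced spheroids over induced flat cultures Cd14 was higher at 1.82 ± 0.32 (adjusted p = 0.00612) and Cd68 at 3.66 ± 0.61 (adjusted p = 0.00498), and Lyz2 was lower at -2.64 ± 0.67 (adjusted p = 0.0241). In bulk RNA, fewer cells that express a gene and less of its RNA per cell cannot be told apart.

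Promoter sequences are shown first because the complex of STAT2 and IRF9 binds the response element there. The upstream part of the promoter entry, which runs to 250 bases before the RefSeq start (build GRCm38.p6), was found for 31 of the 41 genes. It was searched on both strands for the core of the element, GAAANNGAAA, with overlapping matches allowed. The core was found for 14 of the 31 genes (45.2%): Ifit1, Ifit3, Ifit3b, Oas1a, Rsad2, Bst2, Isg15, Stat2, Gbp2, Gbp3, Gbp7, Igtp, Irgm1 and Lgals9. Of all 27025 genes in the promoter table, 936 (3.46%) held it. A match is a run of letters in this window and says nothing of binding in these cells. The 120 bases just before the start are printed for 5 genes with the core whose RefSeq start is also a GENCODE transcript start. Each runs 5′ to 3′ in the direction of transcription, with capitals for the core or its reverse complement.
Isg15: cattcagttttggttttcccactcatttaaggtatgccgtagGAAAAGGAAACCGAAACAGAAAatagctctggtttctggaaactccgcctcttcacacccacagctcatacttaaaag
Rsad2: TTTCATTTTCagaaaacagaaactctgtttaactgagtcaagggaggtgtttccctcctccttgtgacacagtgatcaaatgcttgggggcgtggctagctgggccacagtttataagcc
Irgm1: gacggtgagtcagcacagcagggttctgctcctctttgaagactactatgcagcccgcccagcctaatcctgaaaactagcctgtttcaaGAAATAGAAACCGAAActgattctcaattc
Igtp: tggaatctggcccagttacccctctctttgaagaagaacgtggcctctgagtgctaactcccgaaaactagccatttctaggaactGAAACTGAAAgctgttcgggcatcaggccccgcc
Lgals9: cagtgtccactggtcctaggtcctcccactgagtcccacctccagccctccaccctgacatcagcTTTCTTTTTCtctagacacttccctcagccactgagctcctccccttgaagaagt
Isg15 (chr4:156200819-156200938 on the reverse strand) had 3 overlapping cores, the nearest ending 56 bases before the start. Rsad2 (chr12:26456453-26456572 on the reverse strand) had 1 core 110 bases before the start. Irgm1 (chr11:48871421-48871540 on the reverse strand) had 2 overlapping cores, the nearest 14 bases away. Igtp (chr11:58199436-58199555 on the forward strand) had 1 core at 24 bases, and Lgals9 (chr11:78984925-78985044 on the reverse strand) had 1 at 45 bases.

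The 2 libraries of induced spheroids stood apart from each other, which touches every comparison below. The summed level of the 41 genes was 2138 and 751 CPM in induced spheroids, 1347 and 1638 CPM in uninduced spheroids, 1754 and 1707 CPM in induced flat cultures, and 3568 and 3495 CPM in uninduced flat cultures. Replicate 2 of the induced spheroids was the lowest of the 8 libraries and replicate 1 lay above 5 others, while each other group's pair lay close together. As a share of all counts, the genes made up 0.222% and 0.0783% in induced spheroids, and between 0.145% and 0.339% in the other 6 libraries. The biological coefficient of variation of the 41 genes, which is the spread between replicates beyond counting error, was 0.971 in induced spheroids, 0.161 in uninduced spheroids, 0.0638 in induced flat cultures and 0.0723 in uninduced flat cultures. Over all tested genes it was 0.326, 0.11, 0.0473 and 0.0469 in the same order of groups.

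Uninduced flat cultures had the highest group mean for 40 of the 41 genes, and the exception was Mx1, an antiviral GTPase, which was highest in induced spheroids. The lowest library was replicate 2 of the induced spheroids for 39 genes and replicate 1 of the uninduced spheroids for 2. The lowest group mean was in induced flat cultures for 19 genes, in induced spheroids for 13 and in uninduced spheroids for 9. Per kb of exon, the most abundant of the 41 over the 8 libraries was Bst2 at 229 CPM per kb, which encodes tetherin, a membrane protein that holds budding virions at the cell surface. Lgals3bp, a secreted glycoprotein that binds galectins, followed at 116 CPM per kb, then the ubiquitin-like Isg15 at 59.2, the RNA-binding protein gene Ifit3 at 52.8 and Ifi27l2a, a small interferon-inducible protein, at 49.02. The order differed by group: Lgals3bp, at 77.1 CPM per kb, was above Bst2, at 71.8, in induced spheroids. Ifi27l2a averaged 5.15 CPM per kb in induced spheroids, 2.45 in uninduced spheroids, 56.4 in induced flat cultures and 132 in uninduced flat cultures. The lowest over the 8 libraries were Ifih1, the RNA sensor MDA5, at 1.59 CPM per kb and Herc6, the mouse ligase for ISG15, at 1.68.

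**Figure D1:**
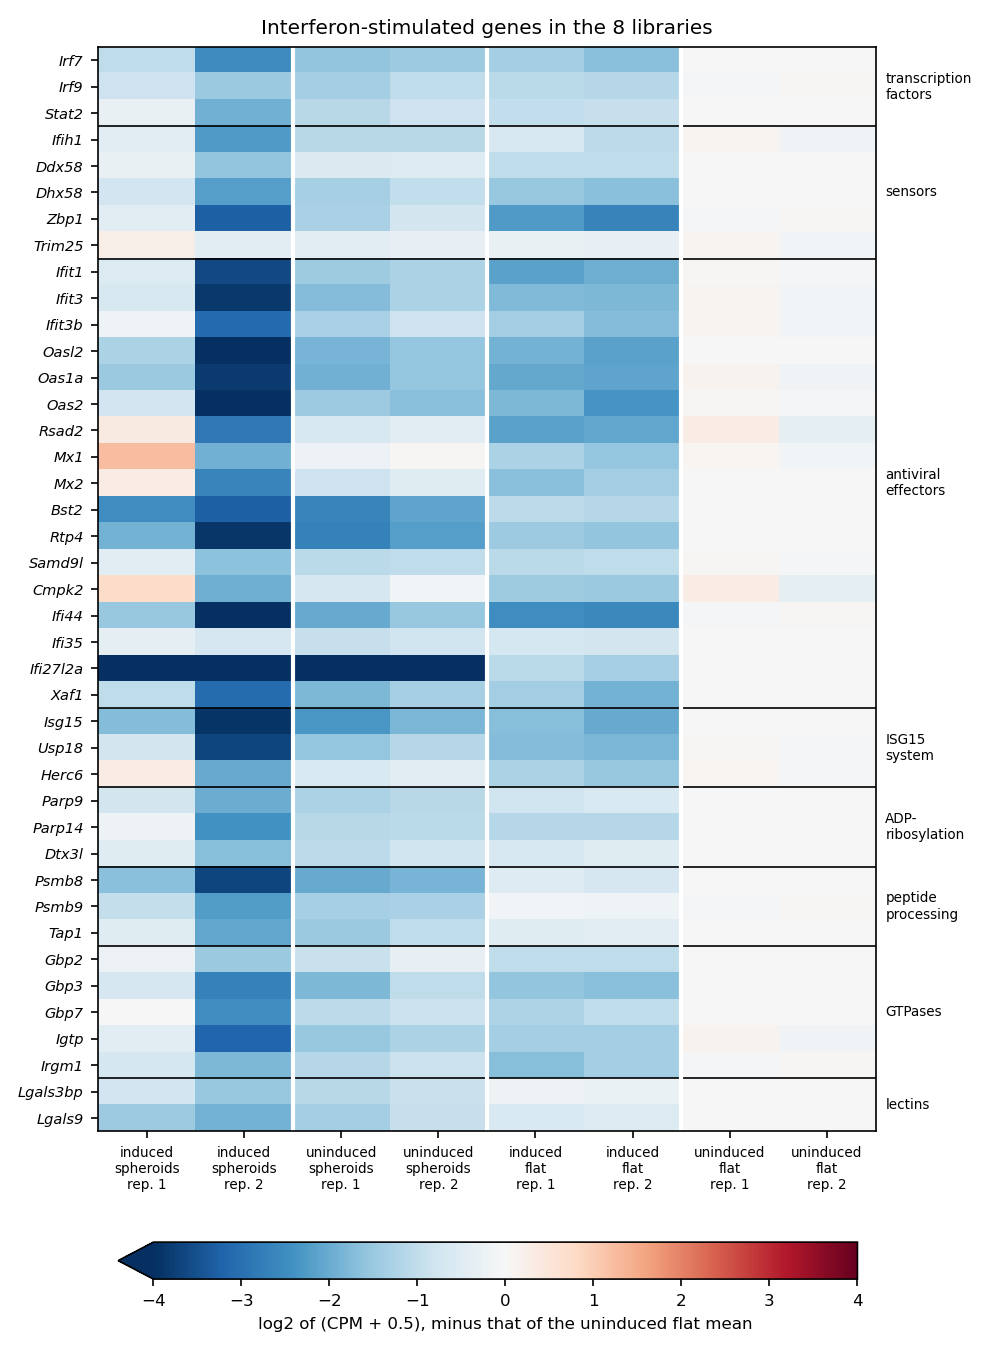
Levels of the 41 genes in the 8 libraries, as log2 of CPM plus 0.5 minus that of the mean of the uninduced flat cultures; rows are genes grouped by role, columns are libraries, and values below the scale carry its end colour. Replicate 2 of the induced spheroids is the darkest column, with the lowest level of 39 genes.

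In flat cultures, induction went with lower levels across the whole group. For all 41 genes both induced libraries lay below both uninduced ones, as did 34.5% of all tested genes. The median log2 fold change was -1.45, against 0.00 over all tested genes. Here "called" means that a gene changed 2-fold or more with an adjusted p under 0.05 in the quasi-likelihood test of edgeR. By this rule 5 of the 41 genes were called lower, against 1.34% of all tested genes, and 0 were called higher, against 3.17%. The 5 were Ifi27l2a, Irf9, Irgm1, Bst2 and Dhx58.

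Ifi27l2a (ENSMUSG00000079017, chr12:103442167-103443680) had 28.4 and 23.8 CPM in induced flat cultures against 60.4 and 61.96 CPM in uninduced flat cultures, a log2 fold change of -1.23 ± 0.14 (adjusted p = 0.00184). Irf9, the DNA-binding partner of STAT2, had 29.5 and 28.4 CPM in induced flat cultures against 60.6 and 64.7 CPM in uninduced flat cultures, a log2 fold change of -1.11 ± 0.22 (adjusted p = 0.0221). Both genes were lower in both induced libraries, with replicates close together. Irgm1, a GTPase that acts on vacuoles of intracellular pathogens, had 24.3 and 31.1 CPM in induced flat cultures against 77.95 and 82.00 CPM in uninduced flat cultures, a log2 fold change of -1.53 ± 0.32 (adjusted p = 0.028). Bst2 had 222 and 209 CPM in induced flat cultures against 449 and 467 CPM in uninduced flat cultures, a log2 fold change of -1.09 ± 0.25 (adjusted p = 0.0395). In each of these 4 genes the higher induced library stayed below the lower uninduced one. Dhx58, the RNA sensor LGP2, had 11.3 and 10.1 CPM in induced flat cultures against 33.2 and 33.3 CPM in uninduced flat cultures, a log2 fold change of -1.64 ± 0.41 (adjusted p = 0.048). Ifi35 passed the adjusted p but not the 2-fold change, at -0.73 ± 0.14 (adjusted p = 0.0193).

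This test gives each gene 1 spread over all 4 groups, including the divergent induced spheroids. Fitted on the 4 flat libraries alone, 30 of the 41 genes were called lower, against 4.11% of all tested genes, and the median was -1.47. The count was also 30 in the 8-library model without either 1 of the induced spheroid libraries, and 1 or 2 without any 1 of the other 6 libraries. In the fit of the 4 flat libraries, the 30 comprised 16 of 17 antiviral effectors, 5 of 5 interferon-induced GTPases, 3 of 3 genes of the ISG15 system, 3 of 5 sensors, 2 of 3 transcription factors and 1 of 3 genes of the ADP-ribosylation group. None of the 3 genes of peptide processing and neither of the galectin-related genes Lgals9 and Lgals3bp was among them.

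Further genes called in the fit of the 4 flat libraries include several that sense or act on viral nucleic acids. Zbp1, a sensor of Z-form nucleic acids, had 3.93 and 2.87 CPM in induced flat cultures against 20.01 and 21.7 CPM in uninduced flat cultures and a log2 fold change of -2.64 ± 0.17 (adjusted p = 9.34e-13). Ifi44 had 15.5 and 14.6 CPM in induced flat cultures against 87.5 and 91.4 CPM in uninduced flat cultures and a log2 fold change of -2.57 ± 0.08 (adjusted p = 4.00e-19). Rsad2, the enzyme viperin that makes a chain-terminating nucleotide, had 6.07 and 6.37 CPM in induced flat cultures against 34.5 and 22.01 CPM in uninduced flat cultures and a log2 fold change of -2.21 ± 0.26 (adjusted p = 0.000619). In all 3 genes both induced libraries were below any uninduced one, and of the 3 Rsad2 had the widest uninduced pair. The oligoadenylate synthetases, which activate RNase L on viral RNA, changed by -2.24 ± 0.17 for Oas1a and -2.17 ± 0.15 for Oas2. Their relative Oasl2 changed by -2.04 ± 0.07. Ifit1, which binds foreign RNA ends, changed by -2.06 ± 0.07 and its partner Ifit3 by -1.80 ± 0.07. In the ISG15 system, Isg15 changed by -1.88 ± 0.08 and Usp18, which removes ISG15 from proteins and restrains receptor signalling, by -1.82 ± 0.08. The changes nearest to 0 were those of Psmb9, an immunoproteasome subunit, at -0.15 ± 0.14 (adjusted p = 0.385), and Lgals3bp, at -0.23 ± 0.05 (adjusted p = 0.000179). Neither gene was called.

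Without induction, the genes were also lower in spheroids than in flat cultures. All 41 log2 fold changes were below 0, with a median of -1.17 against 0.03 over all tested genes, and in 39 genes the spheroid libraries both lay below the flat ones, as in 35.2% of all tested genes. Called lower were 10 of the 41 genes, against 4.02% of all tested genes, and 0 were called higher, against 5.42%. The uninduced flat cultures are also the controls for induction in flat cultures, so the 2 sets of values share libraries. The decrease of Ifi27l2a was by far the largest. It had 1.11 and 1.16 CPM in uninduced spheroids against 60.4 and 61.96 CPM in uninduced flat cultures, a log2 fold change of -5.74 ± 0.18 (adjusted p = 1.03e-05) with replicates close together in both groups. The uninduced spheroid values rest on 15 and 16 counts.

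Among the other antiviral effectors, Bst2 had 73.4 and 105 CPM in uninduced spheroids against 449 and 467 CPM in uninduced flat cultures, a log2 fold change of -2.36 ± 0.27 (adjusted p = 0.00171). Rtp4, a receptor chaperone, had 6.19 and 9.09 CPM in uninduced spheroids against 42.5 and 44.2 CPM in uninduced flat cultures, a log2 fold change of -2.50 ± 0.55 (adjusted p = 0.018). Both genes were several-fold lower in every spheroid library than in any flat one. Of the transcription factors, Irf9 had 24.04 and 30.8 CPM in uninduced spheroids against 60.6 and 64.7 CPM in uninduced flat cultures, a log2 fold change of -1.19 ± 0.22 (adjusted p = 0.00997), and Irf7, which drives type I interferon genes, had 9.66 and 10.5 CPM in uninduced spheroids against 29.9 and 29.7 CPM in uninduced flat cultures, a log2 fold change of -1.56 ± 0.42 (adjusted p = 0.0374). Lgals9, the secreted lectin galectin-9, had 52.1 and 70.6 CPM in uninduced spheroids against 133 and 137 CPM in uninduced flat cultures, a log2 fold change of -1.14 ± 0.19 (adjusted p = 0.00596). None of these groups overlapped.

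The immunoproteasome subunits, which replace the standard catalytic subunits and change the peptides made for presentation, were called here although induction in flat cultures did not move them past the rule. Psmb8 had 5.75 and 6.40 CPM in uninduced spheroids against 24.1 and 25.02 CPM in uninduced flat cultures, a log2 fold change of -2.01 ± 0.54 (adjusted p = 0.0364), beside -0.60 ± 0.51 for induction in flat cultures. Psmb9 had 5.46 and 5.53 CPM in uninduced spheroids against 13.7 and 15.00 CPM in uninduced flat cultures, a log2 fold change of -1.39 ± 0.38 (adjusted p = 0.039), beside -0.15 ± 0.36. The difference between these 2 comparisons was not tested. The last 2 called genes were Isg15, with 20.6 and 29.5 CPM in uninduced spheroids against 105 and 106 CPM in uninduced flat cultures and -2.08 ± 0.58 (adjusted p = 0.0405), and Parp9, an ADP-ribosyltransferase that works with Dtx3l, with 34.2 and 38.6 CPM in uninduced spheroids against 83.03 and 84.3 CPM in uninduced flat cultures and -1.20 ± 0.34 (adjusted p = 0.0447). Mx1 had the value nearest to 0, with 24.04 and 29.7 CPM in uninduced spheroids against 30.4 and 26.5 CPM in uninduced flat cultures and a log2 fold change of -0.08 ± 0.77 (adjusted p = 0.951), and its groups overlapped.

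With the 4 uninduced libraries alone, 29 of the 41 genes were called lower, against 5.95% of all tested genes, with a median of -1.18. The count was 28 in the 8-library model without either 1 of the induced spheroid libraries, and 2 to 6 without any 1 of the other 6. The 29 were 12 of 17 antiviral effectors, 3 of 5 sensors, 3 of 5 GTPases, 3 of 3 genes of peptide processing, and 2 each of the transcription factors, the ISG15 system, the ADP-ribosylation group and the lectins. The 2 uninduced spheroid libraries were not equal: the 41 genes had a median difference of 0.30 log2 (replicate 2 minus replicate 1) against 0.01 over all tested genes, and none differed 2-fold.

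The 2 induced spheroid libraries differed by a median of -2.14 log2 (replicate 2 minus replicate 1) over the 41 genes, against -0.01 over all tested genes. In replicate 2, 34 of the 41 genes were at least 2-fold lower, against 9.69% of all tested genes, and none was 2-fold higher. Within the other 3 groups none of the 41 genes differed 2-fold between replicates, with medians of 0.30 in uninduced spheroids, -0.06 in induced flat cultures and 0.01 in uninduced flat cultures. Each of these differences compares 2 libraries and has no test.

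**Figure D2:**
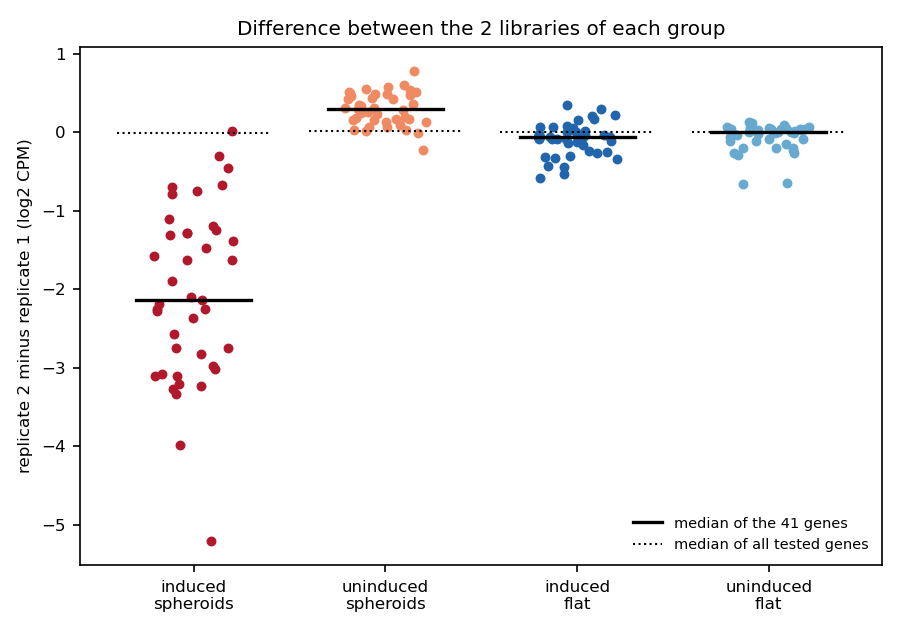
Difference between the 2 libraries of each group, replicate 2 minus replicate 1 in log2 CPM, with 1 point per gene. Solid lines mark the median of the 41 genes and dotted lines that of all tested genes; the points of the induced spheroids run from -5.21 to 0.02, with a median of -2.14.

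The largest difference was in Oas2, at -5.21 log2. It had 15.7 and 0.293 CPM in induced spheroids, 9.59 and 8.14 CPM in uninduced spheroids, 7.41 and 4.90 CPM in induced flat cultures, and 28.02 and 26.3 CPM in uninduced flat cultures, from 5 counts in replicate 2 and 232 in replicate 1 of the induced spheroids. The ratio of replicate 1 to replicate 2 was 53.7, with an exact 95% interval of 22.7 to 167 that covers counting error only. Replicate 1 lay between the uninduced spheroids and the uninduced flat cultures, and replicate 2 far below every other library. Ifi44 (-3.98) had 30.7 and 1.81 CPM in induced spheroids, 21.97 and 30.9 CPM in uninduced spheroids, 15.5 and 14.6 CPM in induced flat cultures, and 87.5 and 91.4 CPM in uninduced flat cultures. Rsad2 (-3.33) had 36.01 and 3.45 CPM in induced spheroids, 18.1 and 20.3 CPM in uninduced spheroids, 6.07 and 6.37 CPM in induced flat cultures, and 34.5 and 22.01 CPM in uninduced flat cultures. In both genes replicate 2 was again the lowest library, and replicate 1 of Rsad2 was the highest of all 8.

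Ifit3 (-3.27) had 118 and 12.2 CPM in induced spheroids, 55.1 and 76.2 CPM in uninduced spheroids, 53.96 and 52.5 CPM in induced flat cultures, and 197 and 172 CPM in uninduced flat cultures. Oasl2 (-3.23) had 65.8 and 6.91 CPM in induced spheroids, 44.02 and 54.5 CPM in uninduced spheroids, 42.7 and 36.1 CPM in induced flat cultures, and 158 and 163 CPM in uninduced flat cultures. For both, the uninduced flat cultures were highest and replicate 1 of the induced spheroids came next. Mx1 (-3.20) had 67.5 and 7.20 CPM in induced spheroids, 24.04 and 29.7 CPM in uninduced spheroids, 11.6 and 9.31 CPM in induced flat cultures, and 30.4 and 26.5 CPM in uninduced flat cultures. Its level in replicate 1 was more than double that of any other library, while replicate 2 was the lowest of the 8.

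A few of the genes barely differed between the 2 induced spheroid libraries. Ifi27l2a differed by 0.02 log2, with 2.37 and 2.40 CPM in induced spheroids against 1.11 and 1.16 CPM in uninduced spheroids. Ifi35, an interferon-induced leucine zipper protein, differed by -0.30, with 31.2 and 25.3 CPM in induced spheroids against 21.2 and 23.2 CPM in uninduced spheroids. These are the only 2 of the 41 genes in which both induced spheroid libraries lay above both uninduced ones, as did 18.0% of all tested genes. Next came Lgals9 at -0.45, Irf9 at -0.67, Trim25 at -0.70, Lgals3bp at -0.74 and Bst2 at -0.79, which with Ifi27l2a and Ifi35 are the 7 genes under 2-fold. Trim25 is a ubiquitin ligase of the RIG-I pathway.

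By role, the median difference was -2.98 in the 17 antiviral effectors, -2.37 in the 3 genes of the ISG15 system, -2.09 in the 5 GTPases, -1.62 in the 3 genes of peptide processing, -1.58 in the 3 transcription factors, -1.47 in the 5 sensors, -1.29 in the 3 genes of the ADP-ribosylation group and -0.60 in the 2 lectins. The 14 genes with the promoter core had a median of -2.42, and the 17 searched genes without it had -1.58. For induction in flat cultures the same lists had medians of -1.55 and -1.02. These medians are descriptions with no test.

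**Figure D3:**
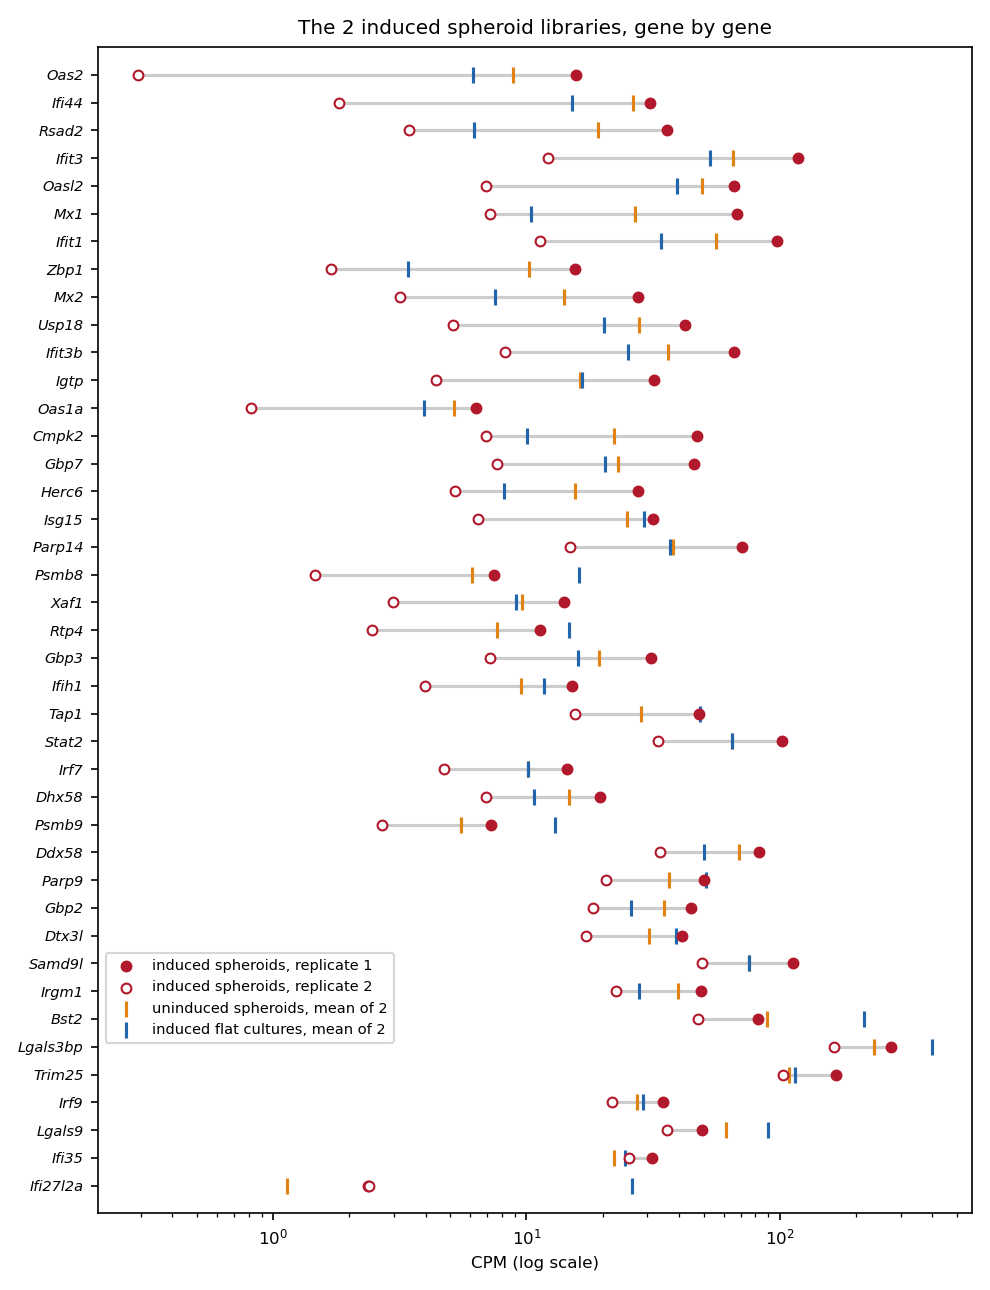
The 41 genes in the 2 induced spheroid libraries (filled and open circles), in CPM on a log scale, ordered by the difference between them; ticks mark the means of uninduced spheroids and induced flat cultures. Replicate 1 lies above both uninduced spheroid libraries in 38 genes (41.4% of all tested genes) and replicate 2 below both in 39 (40.1% of all tested genes).

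Against uninduced spheroids, the 2 induced libraries lay on opposite sides for most of the genes. Replicate 1 was above both uninduced spheroid libraries in 38 genes, against 41.4% of all tested genes, between them in 2 and below both in 1. Replicate 2 was below both in 39, against 40.1% of all tested genes, and above both in 2. With both libraries, induction in spheroids gave a median of -0.05 over the 41 genes, and 0 were called lower or higher by edgeR, against 0.328% and 0.583% of all tested genes. At an unadjusted p under 0.05 there were 2 higher and 1 lower, and DESeq2 also called 0, with 1 and 1. For counts at an unadjusted p, here and below, the share over all tested genes is not given. The smallest adjusted p was that of Ifi27l2a, at 1.07 ± 0.21 (adjusted p = 0.0572).

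Taken singly, each induced library gave calls, under the assumption that a lone library varies as the other groups do. With replicate 2 alone, 27 of the 41 genes were called lower than in uninduced spheroids, against 4.87% of all tested genes, and the median was -1.42. Oas2 was at -4.88 ± 0.42, Ifi44 at -3.85 ± 0.26 and Oasl2 at -2.83 ± 0.17. Ifi27l2a went the other way, at 1.08 ± 0.31, and was thus higher with either library alone. With replicate 1 alone, the median was 0.58 and 2 genes were called higher, against 1.85% of all tested genes. These were Mx1 at 1.32 ± 0.14 and Ifi27l2a at 1.05 ± 0.32.

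Between induced spheroids and induced flat cultures, 5 of the 41 genes were called lower, against 5.46% of all tested genes, and 0 higher, against 6.94%. At an unadjusted p under 0.05, 6 were lower and 0 higher, and DESeq2 called 5 lower and 0 higher. The median log2 fold change was 0.12. Ifi27l2a had 2.37 and 2.40 CPM in induced spheroids against 28.4 and 23.8 CPM in induced flat cultures, a log2 fold change of -3.45 ± 0.16 (adjusted p = 7.55e-05). Bst2 had 82.1 and 47.5 CPM in induced spheroids against 222 and 209 CPM in induced flat cultures, a log2 fold change of -1.74 ± 0.26 (adjusted p = 0.00344). Lgals9 had 49.1 and 35.8 CPM in induced spheroids against 87.7 and 92.3 CPM in induced flat cultures, a log2 fold change of -1.09 ± 0.19 (adjusted p = 0.00575). In these 3 genes both spheroid libraries lay well below both flat ones.

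The other 2 were the immunoproteasome subunits. Psmb8 had 7.44 and 1.46 CPM in induced spheroids against 16.97 and 15.4 CPM in induced flat cultures, a log2 fold change of -1.88 ± 0.56 (adjusted p = 0.0395). Psmb9 had 7.24 and 2.69 CPM in induced spheroids against 13.2 and 12.7 CPM in induced flat cultures, a log2 fold change of -1.39 ± 0.38 (adjusted p = 0.0311). Both libraries of the spheroids were below the flat ones, with replicate 2 more than 2-fold below replicate 1. On the 4 induced libraries alone neither was called (adjusted p = 0.158 and 0.136). Lgals3bp passed the adjusted p but not the 2-fold change, with 275 and 164 CPM in induced spheroids against 408 and 392 CPM in induced flat cultures and -0.87 ± 0.22 (adjusted p = 0.0234). All 5 called genes (5 of 5) were also among those called lower in uninduced spheroids (5 of 10), where other libraries of the same fit were compared. Both comparisons take the spread of a gene from that fit, and the same overlap over all tested genes is not given here.

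Here too the 2 spheroid libraries differed. With replicate 2 alone, 27 genes were called lower than in induced flat cultures, against 9.66% of all tested genes. With replicate 1 alone, 13 were called higher, against 9.96%, and 3 lower, against 6.13%. The 13 included Mx1 at 2.70 ± 0.16, Rsad2 at 2.53 ± 0.24, Cmpk2, the kinase encoded next to Rsad2, at 2.23 ± 0.34, and Zbp1 at 2.21 ± 0.26. Replicate 1 was above both induced flat libraries in 31 genes, against 46.0% of all tested genes, and replicate 2 was below both in 40, against 44.9%. The count of 5 was 2 or 3 without any 1 of the 6 other libraries.

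**Figure D4:**
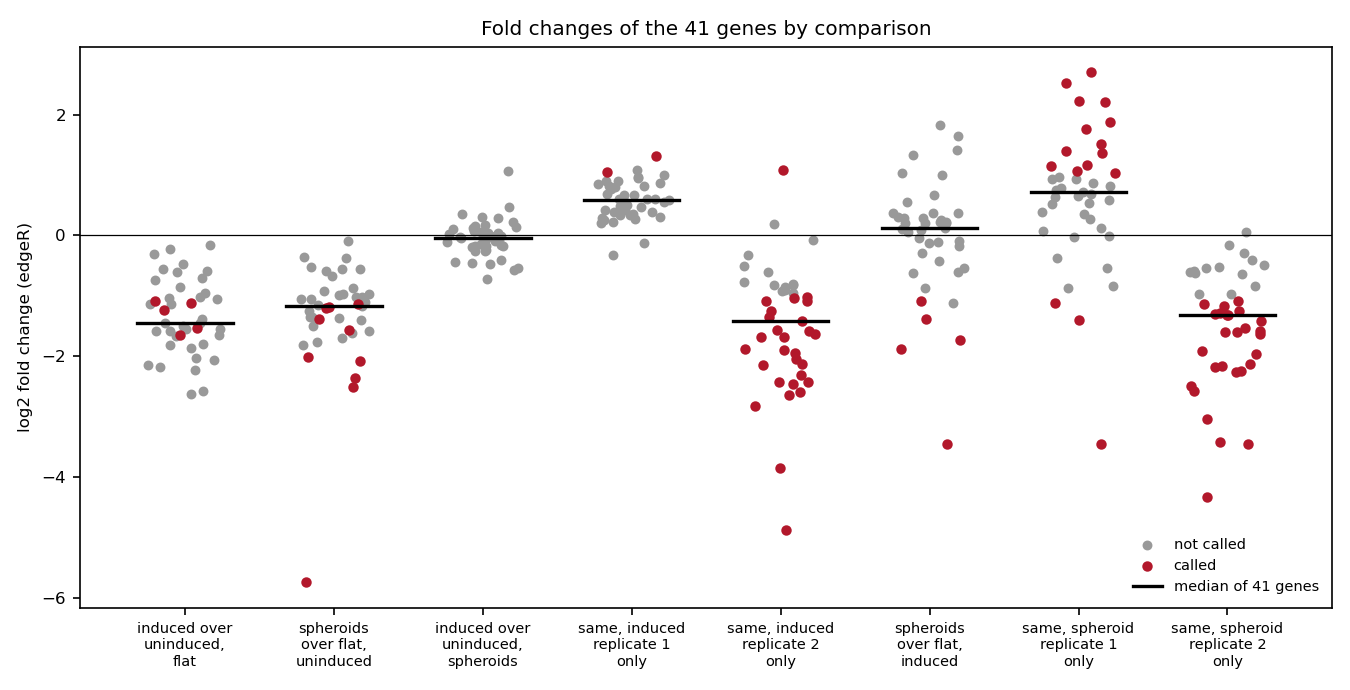
Log2 fold changes of the 41 genes in each comparison, 1 point per gene; red points were called, and black bars mark the medians. The 2 comparisons on the left have medians of -1.45 and -1.17, and those with the induced spheroids have medians of opposite sign when replicate 1 (0.58 and 0.72) or replicate 2 (-1.42 and -1.31) is used alone.

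The interaction, which is the effect of induction in spheroids minus that in flat cultures, had a median of 1.46 over the 41 genes. It was called for 1 gene, Ifi27l2a, as higher, against 0.0393% of all tested genes, and for 0 as lower, against 0.341%. At an unadjusted p under 0.05 there were 7 higher and 0 lower, with no share over all tested genes to set beside them. DESeq2 called 2 higher and 0 lower. For Ifi27l2a the difference was 2.30 ± 0.25 (adjusted p = 0.0174), and it was still called without replicate 1 (2.32 ± 0.33) or replicate 2 (2.29 ± 0.34) of the induced spheroids, but not without any 1 of the other 6 libraries. With replicate 1 alone, 34 genes were called higher, against 2.38% of all tested genes. With replicate 2 alone, 3 were called lower, against 2.58%: Oas2 at -2.71 ± 0.54, Psmb8 at -1.43 ± 0.31 and Ifi44 at -1.28 ± 0.33.

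Of the 6 genes with the highest mean log2 CPM, Bst2 and Lgals9 are given above, and the other 4 were called in no comparison of all 8 libraries. Lgals3bp had 275 and 164 CPM in induced spheroids, 216 and 254 CPM in uninduced spheroids, 408 and 392 CPM in induced flat cultures, and 462 and 472 CPM in uninduced flat cultures, and Trim25 had 167 and 103 CPM in induced spheroids, 106 and 112 CPM in uninduced spheroids, 116 and 114 CPM in induced flat cultures, and 152 and 132 CPM in uninduced flat cultures. Samd9l, an antiviral factor that limits translation, had 113 and 49.5 CPM in induced spheroids, 72.99 and 77.6 CPM in uninduced spheroids, 74.1 and 76.7 CPM in induced flat cultures, and 162 and 150.1 CPM in uninduced flat cultures. Stat2 had 102 and 33.2 CPM in induced spheroids, 57.9 and 71.2 CPM in uninduced spheroids, 63.5 and 66.4 CPM in induced flat cultures, and 127 and 125 CPM in uninduced flat cultures. In Lgals3bp the flat cultures were above all spheroids, in Trim25 the highest library was replicate 1 of the induced spheroids, and in Samd9l and Stat2 the uninduced flat cultures were highest and replicate 1 of the induced spheroids next.

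Other measures moved with the difference between the 2 induced spheroid libraries. The summed level of 8 fibroblast markers was 22796 and 7407 CPM in induced spheroids, 18433 and 20338 CPM in uninduced spheroids, 33175 and 32417 CPM in induced flat cultures, and 52203 and 53654 CPM in uninduced flat cultures. Of these 8 markers, 5 were at least 2-fold below replicate 1 in replicate 2 of the induced spheroids, against 9.69% of all tested genes. The summed adipocyte markers, given above, were higher in replicate 2. Singly, the 8 markers differed by -0.20 to 1.94 log2 (replicate 2 minus replicate 1), with a median of 0.53. Noncoding RNAs that overlap ribosomal RNA (Gm26917 and Gm42418) took 0.106% and 1.13% of counts in induced spheroids, against 0.255% to 0.279% in uninduced spheroids and 0.121% to 0.155% in flat cultures. Mitochondrial transcripts took 2.04% and 2.25% in induced spheroids, 1.57% to 1.84% in uninduced spheroids and 0.303% to 0.343% in flat cultures. The 14 leukocyte markers summed to 29.3 and 53.9 CPM in induced spheroids, 62.6 to 66.7 CPM in uninduced spheroids and 18.9 to 29.5 CPM in flat cultures. The part of these measures in the levels of the 41 genes was not tested.

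Upstream of the 41 genes, transcripts of the interferons themselves were near absent. Of 21 interferon genes, 15 had 0 counts in all 8 libraries, among them Ifng and 11 Ifna genes, and the other 6 had 15 counts in total, with at most 6 in 1 gene (Ifnz). Ifnb1 had 1 count. A gene at 0 in all libraries is limited to 0.0254 CPM (3 counts over all libraries). Of 6 receptor genes, 5 were expressed in all groups, and Ifnlr1, of the interferon-λ receptor, had 0 counts in all 8 libraries. Ifnar1 had 101 and 108 CPM in induced spheroids, 111 and 124 CPM in uninduced spheroids, 85.1 and 82.5 CPM in induced flat cultures, and 108 and 107 CPM in uninduced flat cultures, and Ifnar2 had 28.3 and 31.8 CPM in induced spheroids, 35.4 and 47.6 CPM in uninduced spheroids, 32.4 and 38.1 CPM in induced flat cultures, and 43.9 and 41.4 CPM in uninduced flat cultures. In both the replicates of induced spheroids differed by less than 2-fold, with replicate 2 slightly higher. The 5 were tested, and none was called in any comparison. Their log2 fold changes lay between -0.36 and 0.83 for induction in flat cultures, with 2 at an unadjusted p under 0.05 by edgeR and by DESeq2, and between -0.20 and 0.13 for uninduced spheroids over flat cultures, with 0 by either tool. The interferon-γ receptor gene Ifngr1 gave the 0.83, with 102 and 113 CPM in induced flat cultures against 58.4 and 63.5 CPM in uninduced flat cultures.

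The kinase genes Jak1, Jak2 and Tyk2 differed by less than 2-fold between the induced spheroid libraries and were called in none of the comparisons of all 8 libraries. Jak2, a kinase of the interferon-γ receptor, passed the adjusted p but not the 2-fold change in uninduced spheroids over flat cultures, with 90.96 and 97.7 CPM in uninduced spheroids against 61.04 and 62.1 CPM in uninduced flat cultures and 0.62 ± 0.12 (adjusted p = 0.0121). Stat3, which carries signals of the IL-6 family, was called higher in uninduced spheroids, with 318 and 336 CPM in uninduced spheroids against 157 and 158 CPM in uninduced flat cultures and 1.05 ± 0.11 (adjusted p = 0.00158). Socs3, an inhibitor of cytokine receptors and a STAT3 target, was also higher there, with 64.1 and 74.7 CPM in uninduced spheroids against 28.2 and 31.6 CPM in uninduced flat cultures and 1.22 ± 0.14 (adjusted p = 0.00198), the only 1 of 7 negative regulators called.

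**Figure D5:**
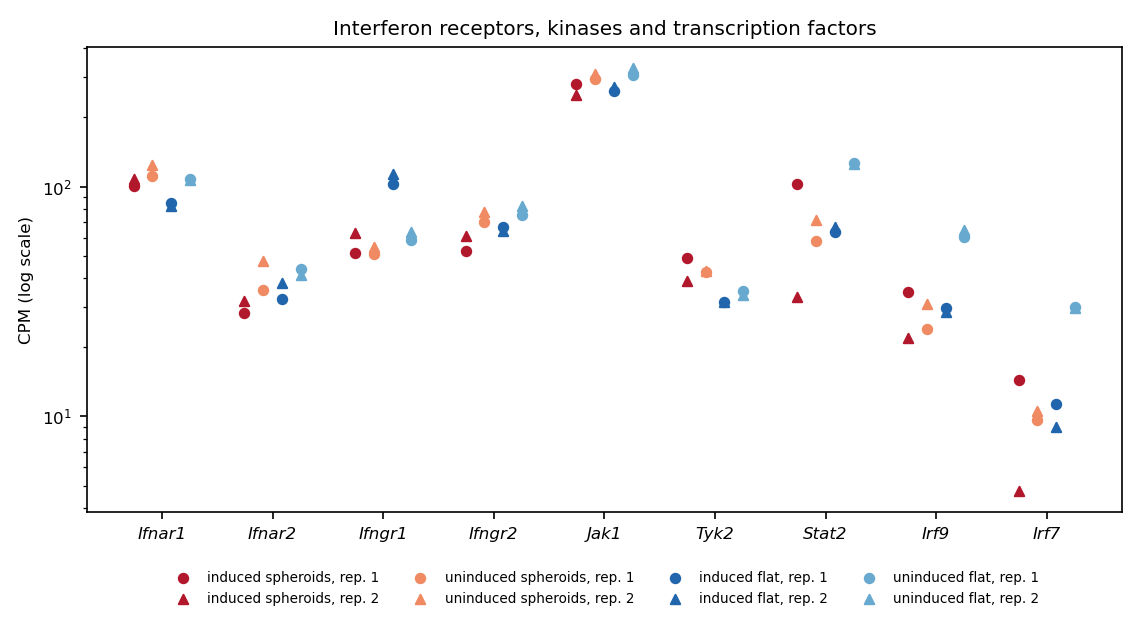
Levels of interferon receptor, kinase and transcription factor genes in each library, in CPM on a log scale; colours mark groups, circles replicate 1 and triangles replicate 2. In Stat2, Irf9 and Irf7 replicate 2 of the induced spheroids lies lowest, while in Ifnar1 and Ifnar2 it lies slightly above replicate 1.

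A second list of 45 interferon-stimulated genes outside the 41, also chosen with earlier results of these data known, had 41 tested genes. Induction in flat cultures gave a median of -1.26 over these. With all 8 libraries 2 were called lower and 0 higher, against 1.34% and 3.17% of all tested genes. The 2 were Adar, an RNA-editing enzyme, at -1.004 ± 0.16 (adjusted p = 0.00939), and Slfn2 at -1.21 ± 0.20 (adjusted p = 0.0104). On the 4 flat libraries alone 22 were lower and 1 higher, against 586 and 627 of all 14251 tested genes. In uninduced spheroids over flat cultures the median was -0.72 with 0 called, against 4.02% lower and 5.42% higher of all tested genes. On the 4 uninduced libraries alone 13 were lower and 2 higher, against 868 and 1095 of all 14580 tested genes. In the induced spheroids, 28 of the 41 were at least 2-fold lower in replicate 2, against 9.69% of all tested genes. The median difference was -2.08 log2. The chemokine gene Cxcl10 was called higher in induced spheroids than in induced flat cultures at 3.87 ± 1.06 (adjusted p = 0.0307), as was Slfn2 at 1.02 ± 0.20 (adjusted p = 0.00894), and Ifi205 was called lower at -1.90 ± 0.41 (adjusted p = 0.0136). Of all tested genes, 6.94% were called higher and 5.46% lower in that comparison. The Cxcl10 libraries had 24.6 and 2.45 CPM in induced spheroids against 1.16 and 0.700 CPM in induced flat cultures. On the 4 induced libraries alone none of the 3 was called, with adjusted p = 0.106 for Cxcl10, 0.0675 for Slfn2 and 0.0561 for Ifi205.

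Of 17 antigen presentation genes outside the 41, 13 were tested. In uninduced spheroids 3 were called lower than in flat cultures, against 4.02% of all tested genes. They were the light chain gene B2m at -1.08 ± 0.13 (adjusted p = 0.00223), H2-T23 at -1.62 ± 0.23 (adjusted p = 0.00337) and Cd74 at -2.27 ± 0.60 (adjusted p = 0.0341). H2-T23 was also lower in induced spheroids than in induced flat cultures, at -1.62 ± 0.22 (adjusted p = 0.00261). Of 9 other interferon regulatory factor genes, 6 were tested and none was called, with log2 fold changes between -0.37 and 0.36 for induction in flat cultures, where 1 had an unadjusted p under 0.05 by edgeR and 1 by DESeq2. Of 15 other sensors and adaptors, 14 were tested. The RNA sensor gene Tlr8 was called higher on induction in flat cultures (adjusted p = 0.00466), with 18 and 22 counts in induced and 0 in both uninduced flat libraries, and in uninduced spheroids over flat cultures (adjusted p = 0.049), with 2 and 3 counts in the spheroids. The STING gene Tmem173 was called higher in induced spheroids than in induced flat cultures, at 1.10 ± 0.13 (adjusted p = 0.00146).

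Likeness over the 8 libraries was measured with Pearson's r. The r of the log2 CPM of each of the 41 genes with the mean of the 41 ran from 0.57 in Ifi27l2a to 0.99, with a median of 0.95. Each gene is part of that mean. For genes outside all the lists, r was taken with the mean of the 41 after each was standardised (scaled to the same mean and spread). The 5 tested genes with the highest r were Abca8a (0.998), Runx1t1 (0.995), Gm6548 (0.989), Col5a2 (0.989) and Olfml2b (0.985). Abca8a, a lipid transporter gene, had 28.1 and 6.14 CPM in induced spheroids, 16.3 and 20.1 CPM in uninduced spheroids, 19.03 and 18.6 CPM in induced flat cultures, and 48.5 and 48.5 CPM in uninduced flat cultures. The fibrillar collagen gene Col5a2 had 1216 and 529 CPM in induced spheroids, 891 and 1086 CPM in uninduced spheroids, 1078 and 1048 CPM in induced flat cultures, and 1884 and 1899 CPM in uninduced flat cultures. Both were lowest in replicate 2 of the induced spheroids and highest in uninduced flat cultures. All these values come from the same 8 libraries, and 1 of them, replicate 2 of the induced spheroids, lies far from the rest.

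Some of the 41 genes have close copies or overlapping neighbours. Transcripts of Ifit3 and Ifit3b share 869 stretches of 50 bases, 51.2% of those of Ifit3 and 44.5% of those of Ifit3b, and 57.6% of the stretches of Oas1a also occur in Oas1g. Values of Ifit3, Ifit3b and Oas1a are thus uncertain, since reads may have been split or dropped. Exons of Parp9 and Dtx3l overlap on opposite strands by 458 bp, those of Psmb9 and Tap1 by 212 bp, those of Psmb8 and the antisense gene Gm20496 by 498 bp and those of Ifi35 and Gm11626 by 290 bp. The library kit was directional, but the strand setting of the counting is not given in the sources used here, so reads of these overlaps may belong to either gene.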

How the data were processed

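The authors deposited unnormalized read counts (whole numbers) by Ensembl gene ID for 8 libraries. The submitters' processing notes name the build mm10 and the tools HISAT2 2.1.0 and featureCounts 1.6.3, after FastQC 0.11.7 and Trimmomatic 0.38. How each tool was set, counting by strand included, is not given in the sources used here, nor is the annotation. The kit was directional per the labels' protocols. Replicate numbers are those of the sample titles, 1 and 2, where the count columns of uninduced flat cultures say 2 and 3.

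From these counts, genes were kept by filterByExpr (minimum count 10), libraries scaled by TMM, and edgeR 4.0.16 (R 4.3.3, limma 3.58.1) fitted with 1 mean per group on all 8 libraries (robust quasi-likelihood, 4 residual degrees of freedom, two-sided, Benjamini-Hochberg over all tested genes). Log2 CPM uses a prior count of 2. Standard errors are the log2 fold change over the square root of F, and ± marks them (n = 2 libraries per group). Where 1 induced spheroid library was used alone, n was 1 in that group. The spread in those fits came from the other groups. At 1 CPM a library held 11.2 to 20.1 counts, a counting error of 22.3 to 29.9%. Alternatives were DESeq2 1.42.0, other scaling and filters, group weights, a replicate block, and fewer libraries. The scripts were tested on simulated data.

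Positions are GRCm38/mm10 in GENCODE vM21. Promoters come from RefSeq, GRCm38.p6. The 41 genes and all other lists were chosen with earlier results of these data known. Values in every library are given for called genes (the 8 with the smallest adjusted p), the 6 with the highest mean log2 CPM and the 6 that differed most between the induced spheroid libraries. Isg15, Parp9, Ifi35, Zbp1, and the examples from fits on fewer libraries were chosen after their values were seen. Of the 6 correlations between the deviations of same-numbered samples, 5 lay between -0.01 and 0.03. The other, between uninduced and induced spheroids, was 0.21. Whether same-numbered spheroid samples share a culture or a batch is not stated, and the main fit used no pairing.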

Additional observations from a re-analysis of the deposited data

Results flagged for a closer look

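Ifi27l2a was the gene whose response to induction differed between spheroids and flat cultures by the interaction test: induction in spheroids minus induction in flat cultures was 2.30 log2 (adjusted p = 0.0174 in edgeR), with a log2 fold change of 1.07 ± 0.21 in spheroids, from 2.37 and 2.40 CPM in induced spheroids against 1.11 and 1.16 CPM in uninduced spheroids, and of -1.23 ± 0.14 in flat cultures, from 28.4 and 23.8 CPM in induced flat cultures against 60.4 and 61.96 CPM in uninduced flat cultures.

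In Ifi35 every induced spheroid library lay above every uninduced one, as in 18.0% of all tested genes. Every induced flat library lay below every uninduced one, as in 34.5% of all tested genes. The share of genes with this opposite split is not given here. The interaction was 1.08 log2. The split itself was not tested, and the interaction test did not pass (adjusted p = 0.0979).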

How the results depend on the processing

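No gene called with all 8 libraries changed direction in the settings tried. Of the others, some were called in opposite directions with replicate 1 or replicate 2 of the induced spheroids alone: 1 for induction in spheroids (Mx1, 1.32 and -1.90 log2), 8 for induced spheroids against induced flat cultures (Oas2 the widest, 1.37 and -4.33 log2) and 2 for the interaction (Oas2 and Ifi44). Counts below are genes called among the 41, and counts over all genes moved too. Lower on induction in flat cultures were 205 of all 15255 genes with 8 libraries and 586 of 14251 with 4. Group weights gave 658 of 15255 and DESeq2 266 of 25674. In uninduced spheroids over flat cultures these counts were 613, 868 of 14580, 845 and 648. In induced spheroids over induced flat cultures they were 833, and 420 of 14538 with 4 libraries. The interaction had 6 higher, 7 with group weights and 23 with DESeq2. The 5 called lower on induction in flat cultures became 3 with no filter on low counts, 30 with the 4 flat libraries alone, 30 with group weights (limma-voom) and 13 with DESeq2, and ran from 1 to 30 when single libraries were left out. The 10 called lower in uninduced spheroids became 6 with no filter, 29 with 4 libraries, 28 with group weights and 17 with DESeq2, and ran from 2 to 28 without single libraries. The 5 called lower in induced spheroids against induced flat cultures became 3 with 4 libraries, and ran from 2 to 27. The 0 called higher there ran from 0 to 13. For induction in spheroids, 0 called lower ran from 0 to 27, and 0 called higher became 1 with no filter and ran from 0 to 2. The interaction's 0 lower ran from 0 to 3, and its 1 higher became 3 with no filter, 0 with group weights and 2 with DESeq2, and ran from 0 to 34. With a replicate block, the 5 became 3 and the 10 became 9, while the other counts were as without it; same numbers mark no stated pairing. Of the settings for single called genes, 237 kept the call and 98 lost it with the same direction. The cause of these changes was not tested, except that the divergent induced spheroid pair enters the shared spread of every 8-library fit. Depth limits low genes: Oas2 had 5 counts in replicate 2 of the induced spheroids, and none of the interferon genes could be tested.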
